A study of Homo sapiens with 4 samples.

Results

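The S100 calcium-binding protein family was followed through Nanopore cDNA libraries of human embryonic stem cells (hESCs) in the naïve or the primed state. Its members here were *S100P*, *S100A2*, *S100A4*, *S100A6*, *S100A10*, *S100A11*, *S100A13*, *S100A14*, *S100A16* and *S100B*, 10 of the 62218 annotated genes of the count files, with 45 transcripts among them. They were chosen by their naïve and primed counts, which had been seen in these same libraries, so every comparison of a member between the states is a description and carries no test. The value of a gene was the count of its transcript with the largest mean count. Of the 10 members, 9 were among the 27633 tested genes, which needed 10 or more counts in 2 or more libraries, and *S100B* was not. *S100P*, *S100A4* and *S100A2* reached that minimum through the libraries of 1 state alone.

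All 4 libraries came from wild-type cells of the embryonic stem cell line H1, so the values describe a single line. The 2 naïve libraries were made from H1-derived cells kept in FINE, an inhibitor-containing medium with LIF, Activin A and bFGF used in a low-oxygen incubator, and labelled with 50% confluency. The 2 primed libraries were made from H1 cells kept in mTeSR (TesR in the titles) at normal oxygen and labelled with 60 to 70% confluency. Medium, oxygen and confluency went together with the state and cannot be told apart from it. The labels do not say that the replicates were separate cultures, so the p-values given for other genes measure the spread between these libraries, which may be technical.

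S100 proteins are small calcium sensors built from a pair of EF-hand helix-loop-helix units, and they usually work as dimers. Binding of calcium opens a hydrophobic cleft through which most of them dock onto partner proteins such as annexins, cytoskeletal proteins and ezrin, and some are released from cells and bind surface receptors such as AGER (RAGE). Most of the family lies in a cluster on the long arm of chromosome 1, the epidermal differentiation complex, while *S100P* and *S100B* lie on other chromosomes, and *S100P* was first described in the placenta.

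The sequences before the start sites show how unlike the promoters of the members were. RefSeq (GRCh38.p14) gave a promoter for 9 of the 10 members, 13 promoters in all, and *S100B* had no entry. Printed here are the 250 bases before the start of the 4 members whose values the text turns on most, with *S100P* and *S100A14* as those with the widest gaps towards naïve cells, *S100A10* as a high member with a GC-rich promoter, and *S100A4* as the member with the widest gap towards primed cells. The starts are those of RefSeq, and for *S100A14* and *S100A4* they lie downstream of the starts of the longer transcripts on which the counts were read, S100A14-204 and S100A4-202. Each is written 5′ to 3′ on the strand of the gene, and capitals mark TATAA or GGGCGG on either strand.

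S100P (chr4:6693628-6693877, plus strand): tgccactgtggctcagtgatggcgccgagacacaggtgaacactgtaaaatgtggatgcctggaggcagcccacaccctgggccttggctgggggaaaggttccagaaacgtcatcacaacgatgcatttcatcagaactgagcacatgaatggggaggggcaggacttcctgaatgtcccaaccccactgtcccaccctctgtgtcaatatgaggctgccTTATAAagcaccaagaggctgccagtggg
S100A14 (chr1:153616326-153616575, minus strand): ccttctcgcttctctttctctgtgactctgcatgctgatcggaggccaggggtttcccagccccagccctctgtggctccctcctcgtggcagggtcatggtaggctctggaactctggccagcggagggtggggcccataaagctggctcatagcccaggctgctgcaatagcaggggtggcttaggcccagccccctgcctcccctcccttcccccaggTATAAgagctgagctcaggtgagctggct
S100A10 (chr1:151993860-151994109, minus strand): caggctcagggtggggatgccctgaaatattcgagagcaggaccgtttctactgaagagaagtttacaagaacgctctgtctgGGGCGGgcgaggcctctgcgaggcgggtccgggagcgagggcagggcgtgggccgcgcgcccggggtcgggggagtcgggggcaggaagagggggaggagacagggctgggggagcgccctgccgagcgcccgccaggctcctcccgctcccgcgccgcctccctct
S100A4 (chr1:153545807-153546056, minus strand): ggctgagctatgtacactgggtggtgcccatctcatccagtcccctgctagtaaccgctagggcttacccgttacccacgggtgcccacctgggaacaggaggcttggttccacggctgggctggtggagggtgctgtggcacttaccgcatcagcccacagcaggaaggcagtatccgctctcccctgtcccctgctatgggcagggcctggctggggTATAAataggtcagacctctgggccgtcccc

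TATAA, the core of a TATA box, stood 28 bases before the start of *S100P*, 29 before that of *S100A14* and 31 before that of *S100A4*. In *S100P* the capitals hold 2 overlapping matches, TATAA and the same letters read on the other strand. A further 2 members had TATAA at such a distance, *S100A6* at 30 bases and 1 of the 3 promoters of *S100A13* at 29 bases. A TATAA between 25 and 35 bases before the start was thus found in 5 of the 13 member promoters, from 5 genes, and in 4.19% of the 35116 promoters of the table. Over the whole 250 bases TATAA was in 5 member promoters and in 18.9% of all promoters. The members with the letters lay on both sides of the comparison, with *S100P*, *S100A14* and *S100A13* higher in naïve cells, *S100A4* higher in primed cells and *S100A6* overlapping.

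GGGCGG, a box read by SP and KLF factors, was in the promoters of *S100A10*, *S100A11* and *S100A6*, in 1 of 3 of *S100A13* and in 1 of 2 of *S100A16*, against 42.6% of all promoters. GGAATG, the letters of a TEAD site, was in 1 promoter of *S100A16* against 11.9% of all, and GCCNNNGGC, the letters of a TFAP2 site, was in *S100A6* and in 1 of 2 promoters of *S100A2* against 19.8% of all. The promoters of *S100A10* and *S100A6* each held 24 CpG, those of *S100P* and *S100A14* 4 each and that of *S100A4* 7, where the median over all promoters was 11 and over the 13 member promoters 7. Both strands were searched for every motif, and a match is only a stretch of letters.

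The libraries held 129276054 to 161548901 counts over transcripts and 23542387 to 30978752 after 1 transcript per gene was taken. Levels are given as CPM, the usual depth-scaled count, computed on the gene-level library size after TMM scaling, with the SD over the 2 libraries of a state. The TMM factors were 0.779 and 0.824 for the naïve and 1.25 and 1.24 for the primed libraries, so scaling by library size in place of TMM moved the median log2 fold change of all tested genes from 0.08 to 0.72 (primed over naïve). A count of 3 is taken as the lowest that can be told from none, which is 0.0978 to 0.130 CPM. Intervals on counts and shares cover counting error only and hold no spread between libraries. The reads carried no molecular identifiers and multi-mapping was allowed, so even the counting error may be wider than shown.

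The labels were checked on marker genes, beside a background in which 70.0% of all tested genes were called, 32.6% higher in naïve and 37.4% higher in primed cells. Some markers, *DNMT3L*, *THY1* and *SFRP2* among them, reached the count minimum through the libraries of 1 state alone. All 8 naïve markers were higher in the naïve libraries by edgeR's quasi-likelihood test, with *DNMT3L* at 4540 and 3798 counts against 4 and 2 and *DPPA3* at 3469 and 3745 against 10 and 6, although the direction of *KLF17* flipped when library size replaced TMM. All 8 primed markers were higher in the primed libraries, where *THY1* had 2039 and 1888 counts and *SFRP2* 1526 and 1645 against none in the naïve libraries, and with either primed library left out 4 of the 8 were tested and called. Of 4 pluripotency genes used by both states, 3 were called. *NANOG* was higher in naïve cells (log2 fold change -1.62), and *SOX2* (2.38) and *LIN28A* (2.11) were higher in primed cells. *POU5F1*, the other gene of this list, had 7606 and 6709 counts in naïve and 8689 and 8520 in primed libraries and did not pass (log2 fold change -0.05, edgeR adjusted p = 0.771).

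Across the members, 6 had both naïve libraries above both primed libraries in CPM, 2 had both primed libraries above both naïve libraries, and 2 overlapped. Over all tested genes, 84.4% did not overlap between the states, 39.6% with naïve and 44.8% with primed above, and nothing is read from the members' counts, which come from the values that chose them. The 10 members together made up 1267.5 and 1253.6 CPM in the naïve and 248.7 and 255.2 CPM in the primed libraries. *S100A11*, *S100P* and *S100A10* held 32.9%, 28.1% and 24.1% of that sum in naïve replicate 1 and 32.1%, 29.8% and 23.1% in naïve replicate 2. In the primed libraries the sum was led by *S100A11* with 35.7% and 37.4% and *S100A10* with 27.3% in each, while *S100A6* took 10.1% and 11.2% and *S100A4* 7.33% and 7.10%. These are bulk libraries, in which fewer cells that use a gene and less RNA of it per cell cannot be told apart.

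**Figure D1:**
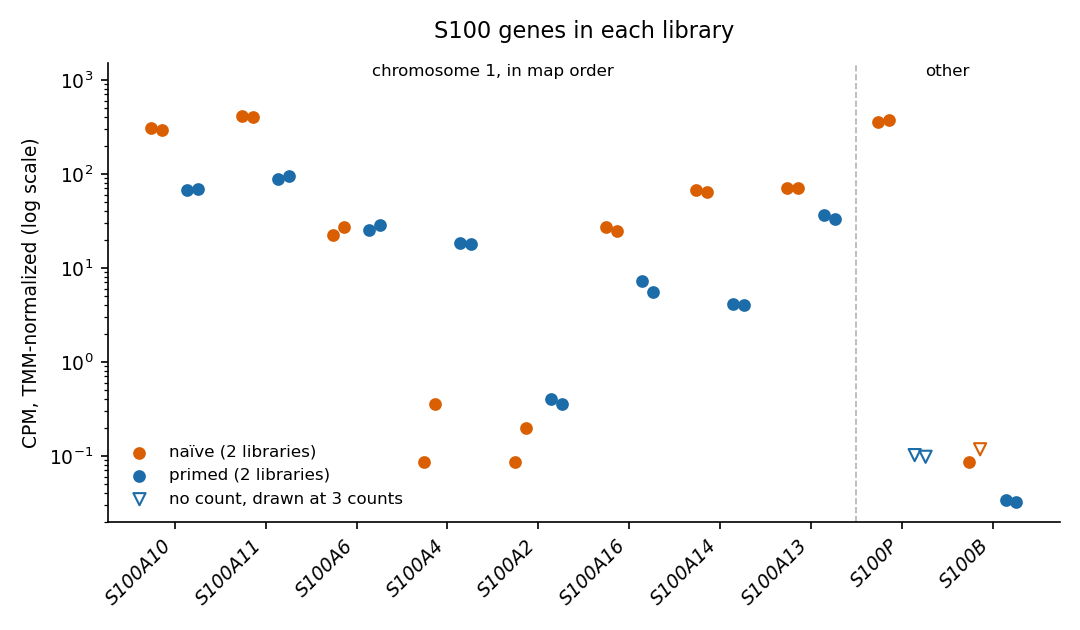
CPM after TMM scaling (y axis, log scale) of the 10 S100 members in each of the 2 naïve (orange) and 2 primed (blue) libraries, with the 8 members of chromosome 1 in map order and the others to the right of the dashed line. Open triangles stand for libraries with no count and are drawn at the CPM of 3 counts. *S100P* lies at 356.7 and 373.2 CPM in naïve libraries with no primed count, *S100A4* lies at 18.2 and 18.1 CPM in primed libraries, and *S100A6* overlaps.

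The binding partners of annexins come first. *S100A10* (p11), the light chain of the annexin A2 tetramer and a member that no longer needs calcium for its active shape, was read on S100A10-202 (ENSG00000197747, GRCh38 chr1:151982915-151993859, minus strand, 3 exons). Naïve replicates 1 and 2 had 7056 and 7395 counts, primed replicates 1 and 2 had 2000 and 2139. In CPM this was 305.6 and 289.6 against 67.9 and 69.7. The naïve libraries were both high and lay far from the primed pair, with means of 297.6 ± 11.3 and 68.8 ± 1.29 CPM (SD, n = 2), 4.33-fold higher in naïve cells and 4.16- to 4.50-fold over the 4 pairs of libraries.

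*S100A11* (calgizzarin), which docks onto annexins A1 and A2 and is used in membrane repair, was close to *S100A10* in both level and difference. It was read on S100A11-202 (ENSG00000163191, chr1:152032506-152047907, minus strand, 3 exons) with 9619 and 10286 naïve and 2618 and 2927 primed counts. The naïve mean of 409.8 ± 9.76 CPM (SD, n = 2) was 4.45-fold the primed mean of 92.1 ± 4.61 CPM, and the pairs of libraries gave 4.22- to 4.69-fold. The log2 fold changes (primed over naïve) of *S100A11* and *S100A10* were -2.15 and -2.11. The transcript taken for *S100A11* reaches upstream of the coding transcript S100A11-201, and the added stretch held 2, 3, 3 and 6 counts in naïve replicates 1 and 2 and primed replicates 1 and 2, so nearly all counts lay within S100A11-201. An unnamed lncRNA on the other strand (ENSG00000229021) spans the coding transcript and had 9624, 10296, 2620 and 2930 counts. S100A11-201 alone, within that span, held 9617, 10283, 2615 and 2921, so few counts of the lncRNA lay elsewhere along it. Since the counting ignored strand, alignments within S100A11-201 cannot be told apart by gene.

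The members of the chromosome 1 cluster that are known best from epithelia followed. *S100A14*, an epithelial member with little affinity for calcium, was read on S100A14-204 (ENSG00000189334, chr1:153614255-153616986, minus strand, 5 exons). It had 1571 and 1646 counts in naïve and 121 and 124 in primed libraries, 68.1 and 64.5 against 4.11 and 4.04 CPM. Its naïve mean of 66.3 ± 2.53 CPM (SD, n = 2) was 16.3-fold the primed mean of 4.07 ± 0.0468 CPM, the widest gap among the members that had more than 3 counts in every library and were higher in naïve cells. *S100A16*, a widely used member that lies next to it, had 622 and 625 naïve and 212 and 171 primed counts on S100A16-204 (ENSG00000188643, chr1:153606886-153613137, minus strand, 3 exons). Both of its naïve libraries lay above both primed ones, at 25.7 ± 1.74 against 6.38 ± 1.15 CPM, 4.03-fold apart with 3.40 to 4.84 over the pairs. These neighbours thus differed by 16.3-fold and 4.03-fold, and their spans do not overlap.

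*S100A13*, which takes part in the export of FGF1 by a route that bypasses the secretory pathway, differed least among the members higher in naïve cells. It had 1643 and 1817 naïve and 1083 and 1024 primed counts on S100A13-206 (ENSG00000189171, chr1:153618808-153631360, minus strand, 5 exons), a transcript without a defined coding sequence. The naïve mean of 71.2 CPM, with an SD of 0.00425, was 2.03-fold the primed mean of 35.1 ± 2.40 CPM (n = 2), and the pairs gave 1.94- to 2.13-fold. The raw counts of the 2 states lie closer than the CPM, and the log2 fold change went from -1.02 under TMM to -0.38 under library size. *S100A13* shares its span with *S100A1* on the other strand, which had 22, 41, 41 and 39 counts, and with a lncRNA on its own strand (ENSG00000271853) with 2000, 2112, 1502 and 1434 counts. The shorter S100A13-202 ends before the span of *S100A1* and held 1634, 1792, 1060 and 998 counts, so few of the counts taken for *S100A13* can be those of *S100A1*. The lncRNA overlaps S100A13-202 as well, so the counts of *S100A13* may hold its alignments.

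*S100P* stood apart from every other member. It binds ezrin and AGER, and it was read on S100P-201 (ENSG00000163993, chr4:6693878-6697170, plus strand, 2 exons). Its counts were 8234 and 9529 in the naïve cells, and neither primed library held any. The naïve level was 364.9 ± 11.7 CPM (SD, n = 2). Against the floor of 3 counts in each primed library this is at least 3657-fold higher in naïve cells. Its 2 transcripts have the same span and the same counts, so the count files cannot tell them apart, and no other gene overlaps its chosen span.

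*S100P* is best known from placental trophoblast, and trophoblast markers were higher in the same libraries. Of 22 trophoblast markers, 21 were tested and 19 were higher in the naïve libraries by edgeR's quasi-likelihood test, where 32.6% of all tested genes were. *CGA*, *VGLL1*, *TFAP2A*, *GATA2*, *NR2F2*, *HAND1*, *ERVW-1* and *ERVFRD-1* reached the count minimum through the naïve libraries alone, the state in which they are high. Nothing is read from the direction of these. The summed level of all 22 markers was 4768 and 4932 CPM in naïve and 394.5 and 363.0 CPM in primed libraries. *CGB3*, *CGB5* and *CGB8* had nearly the same counts. Since multi-mapping was allowed, the sum and the count of markers may hold the same alignments more than once. In the primed libraries the sum was led by keratins, with *KRT8* at 208.2 and 188.0 CPM and *KRT18* at 122.0 and 113.4 CPM. *CGA*, the alpha subunit of chorionic gonadotropin, had 35747 and 47550 naïve counts and 0 and 1 primed counts, and *VGLL1* had 402 and 426 against none. *KRT7* and *ENPEP* did not pass and *CDX2* was not tested, and with either naïve library left out 13 markers were tested and 11 called. Amnion markers summed to 30.9 and 29.5 CPM in naïve against 9.10 and 7.98 CPM in primed libraries. This list is shorter, so the 2 sums do not compare the cell types. Of its 8 genes, 6 were higher in naïve and 1 in primed cells, against 32.6% and 37.4% of all tested genes. Under library size these were 5 and 2. *ISL1*, *VTCN1* and *HEY1* reached the count minimum through the naïve libraries alone. *TNC*, the 1 higher in primed cells under TMM, reached it through the primed libraries alone. The direction of these genes is not read either. With either naïve library left out, 5 of the 8 were tested. Among the amnion markers, *IGFBP3* had 244 and 270 against 47 and 49 counts and *ITGB6* 96 and 110 against 12 and 20. The part of these markers in the level of *S100P* was not tested.

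The 5 genes with the pattern most like that of *S100P* were *KHDC1L*, *XAGE2*, *CGA*, *LGALS16* and *MEG3*. Likeness was the Euclidean distance between the row-centred log2 CPM over the 4 libraries, among 14698 genes with a symbol and a mean count of at least 50. The distances ran from 1.29 to 2.23 log2 units. *KHDC1L* had 27211 and 26908 naïve and 4 and 2 primed counts, while the primed libraries held no count of *MEG3*, *XAGE2* or *LGALS16*, nor of *S100P* itself.

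*S100A4* (metastasin), which binds non-muscle myosin IIA and marks motile and fibroblast-like cells, had the opposite pattern. On S100A4-202 (ENSG00000196154, chr1:153543621-153550136, minus strand, 3 exons) only 2 and 9 counts were found in naïve cells, against 537 and 556 in primed cells. In CPM this was 0.0866 and 0.352 against 18.2 and 18.1. The primed mean of 18.2 ± 0.0768 CPM was 82.8 times the naïve mean of 0.22 ± 0.188 CPM (SD, n = 2), and because the naïve counts were so few the pairs of libraries gave anything from 51.4 to 210.4. The ratio of the summed counts had a 95% counting interval of 44.7 to 161.4.

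The span taken for *S100A4* encloses its neighbour *S100A3*, which had 2, 4, 5 and 3 counts in naïve replicates 1 and 2 and primed replicates 1 and 2. The shorter S100A4-204 leaves *S100A3* out and had 1, 5, 533 and 554 counts, where the primed mean of 18.1 ± 0.0269 CPM was 151.1 times the naïve mean of 0.120 ± 0.108 CPM (SD, n = 2), a ratio that rests on 1 and 5 naïve counts. The stretch outside S100A4-204 thus held 1, 4, 4 and 2 counts, a like number in both states, which was a large share of the few naïve counts and a small share of the primed ones. The 5 genes most like *S100A4* were *TTC39C*, *DOCK8-AS2*, *HLA-DOA*, *SLC24A5* and *SLC38A4*, at distances of 0.275, 0.460, 0.502, 0.507 and 0.532, and each had at most 4 counts in a naïve library and at least 117 in a primed one.

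Some fibroblast markers were higher in the same libraries as *S100A4*. Of 8, 6 were tested and 4 were higher in the primed libraries by edgeR's quasi-likelihood test, and none in the naïve libraries. Over all tested genes, 37.4% were higher in primed cells and 70.0% were called in either direction. Among the 4 were *COL1A1* with 36 and 30 against 948 and 1174 counts and *COL1A2* with 9 and 17 against 706 and 605. The list summed to 4.76 and 4.11 CPM in naïve and 59.9 and 62.1 CPM in primed libraries. *COL3A1* did not pass, at 35, 18, 37 and 43 counts (log2 fold change 0.28, edgeR adjusted p = 0.476), and neither did *TWIST2*. *PDGFRB*, with 18 and 28 against 43 and 52 counts, and *POSTN*, with 2 and 2 against 12 and 14, passed. *POSTN* reached the count minimum through the primed libraries alone. Without primed replicate 2 the count was 2 of 5 tested, and DESeq2 also gave 2. Their part in the level of *S100A4* was not tested.

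*S100A2*, a member best known from basal epithelial cells, was at the edge of detection. It had 2 and 5 counts in naïve and 12 and 11 in primed libraries on S100A2-202 (ENSG00000196754, chr1:153561108-153565844, minus strand, 3 exons). The primed mean of 0.383 ± 0.0345 CPM was 2.71 times the naïve mean of 0.141 ± 0.0772 CPM (SD, n = 2). The pairs of libraries did not overlap and gave 1.83 to 4.70, and the 95% counting interval of the ratio of summed counts was 1.10 to 7.33. All 6 transcripts of *S100A2* had the same counts.

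*S100B*, the member known from glia and a ligand of AGER, had 2 and 0 counts in naïve and 1 and 1 in primed libraries on S100B-201 (ENSG00000160307, chr21:46598604-46605082, minus strand, 3 exons). All 4 libraries were under the floor of 3 counts, so *S100B* was not detectable at this depth and no fold is given.

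*S100A6* (calcyclin), which binds CACYBP, was the member whose level overlapped between the states. On S100A6-202 (ENSG00000197956, chr1:153534599-153536244, minus strand, 4 exons) it had 511 and 695 naïve and 743 and 879 primed counts. In CPM this was 22.1 and 27.2 against 25.2 and 28.6, so naïve replicate 2 lay between the primed libraries. The means were 24.7 ± 3.60 and 26.9 ± 2.42 CPM (SD, n = 2), and the pairs of libraries gave a primed over naïve ratio of 0.926 to 1.29.

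Within *S100A6*, however, the counts were spread over the gene in different ways in the 2 states. S100A6-204, an annotated transcript with a retained intron, spans chr1:153535093-153535991, which holds exons 1 and 2 of the coding transcript S100A6-201 and not its exon 3 at chr1:153534599-153534830, where the stretch encoding the C-terminal end and the 3′ UTR lie. An alignment that overlaps S100A6-201 but not S100A6-204 therefore overlaps the stretch from 153534599 to 153535092, at the 3′ end, and has no base in the S100A6-204 span. Such alignments were 305 of 511 in naïve replicate 1 (59.7%, 95% Wilson interval 55.4 to 63.9%) and 397 of 695 in naïve replicate 2 (57.1%, 53.4 to 60.8%). In the primed libraries they were 246 of 743 (33.1%, 29.8 to 36.6%) and 353 of 879 (40.2%, 37.0 to 43.4%). The states did not overlap, with means of 58.4% ± 1.81 and 36.6% ± 4.99 (SD, n = 2).

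The alignments that overlapped the S100A6-204 span were accordingly 8.92 and 11.7 CPM in naïve and 16.9 and 17.1 CPM in primed libraries. On this measure the states did not overlap and the primed mean of 17.0 ± 0.192 CPM was 1.65 times the naïve mean of 10.3 ± 1.94 CPM, whereas on the whole span they overlapped. The lncRNA ENSG00000238279 on the other strand runs past the 3′ end of *S100A6* and to 153535129, just inside the S100A6-204 span, and had 511, 693, 741 and 877 counts. Because strand was ignored, alignments of that lncRNA and of *S100A6* cannot be told apart on either measure.

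The same measure differed less between the states in 2 other members. Of the alignments of *S100A14*, 13.5% and 16.8% in naïve and 9.09% and 16.1% in primed libraries missed the span of S100A14-202, which starts 61 bases inside the start of S100A14-201 and ends 522 bases before its end, and the states overlapped. For *S100A10* and S100A10-203 the shares were 1.69% and 2.01% in naïve and 2.10% and 2.38% in primed libraries. In *S100A10* both primed shares lay above both naïve shares, the reverse of *S100A6*.

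**Figure D2:**
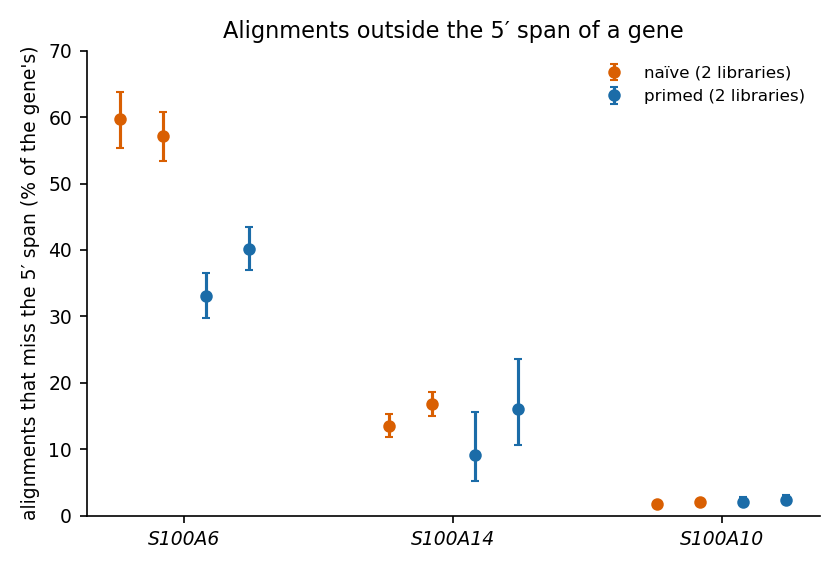
Share of the alignments of *S100A6*, *S100A14* and *S100A10* (y axis, % of the gene's alignments) that miss the span of a shorter transcript at the 5′ side, in each naïve (orange) and primed (blue) library. Bars are 95% Wilson intervals and cover counting error only. *S100A6* lies at 59.7% and 57.1% in naïve and at 33.1% and 40.2% in primed libraries, while *S100A14* overlaps and *S100A10* stays under 3% in every library, its upper Wilson limit reaching 3.12%.

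Levels were compared between members per kb of exonic sequence of the chosen transcript, and the orders below depend on this division by length. In CPM without it, *S100A11* lay above *S100P* in naïve cells, at 409.8 against 364.9. In naïve cells *S100P* led with 774.8 ± 24.8 CPM per kb, followed by *S100A11* with 735.6 ± 17.5 and *S100A10* with 443.6 ± 16.9 (SD, n = 2). *S100A14* at 54.4 ± 2.08, *S100A6* at 36.7 ± 5.34, *S100A13* at 32.6 ± 0.00194 and *S100A16* at 21.9 ± 1.49 CPM per kb formed a middle group. *S100A4*, *S100A2* and *S100B* were at 0.413, 0.145 and 0.0391 CPM per kb, and among neighbours in the order the libraries of *S100A4* and *S100A2* overlapped. The means of *S100A6* and *S100A13* differed by less than the SD of *S100A6*.

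In primed cells *S100A11* led with 165.4 ± 8.28 CPM per kb, before *S100A10* with 102.5 ± 1.92, *S100A6* with 40.0 ± 3.60 and *S100A4* with 34.2 ± 0.145. Then came *S100A13* with 16.1 ± 1.10, *S100A16* with 5.45 ± 0.979 and *S100A14* with 3.34 ± 0.0385, and after them *S100A2*, *S100B* and *S100P*, with 0.392, 0.0300 and no CPM per kb. No neighbours in this order overlapped by their libraries. Per kb, *S100A14* thus lay above *S100A6*, *S100A13* and *S100A16* in naïve cells and under all 3 in primed cells. In CPM without the division, *S100A13* lay above *S100A14* in naïve cells, at 71.2 against 66.3. In primed cells its 35.1 CPM lay above *S100A6* at 26.9 and *S100A4* at 18.2. With the coding transcript S100A13-204, whose exons are shorter than those of S100A13-206, *S100A13* came to 99.3 ± 0.597 CPM per kb in naïve and 48.2 ± 3.44 in primed cells, above *S100A14* and *S100A6* in both states.

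The scaling moved the size of the gaps between the states but turned the direction of no tested member. From TMM to library size the log2 fold changes (primed over naïve) went from -2.15 to -1.51 in *S100A11*, from -2.11 to -1.47 in *S100A10*, from -4.02 to -3.38 in *S100A14* and from -2.01 to -1.37 in *S100A16*. *S100A4* went from 6.30 to 6.93 and *S100A2* from 1.38 to 2.0. *S100A6* went from 0.13 to 0.76, where its libraries no longer overlapped, which is close to the shift of the median of all genes. DESeq2 size factors gave -4.07 for *S100A14* and 6.28 for *S100A4*, close to TMM.

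**Figure D3:**
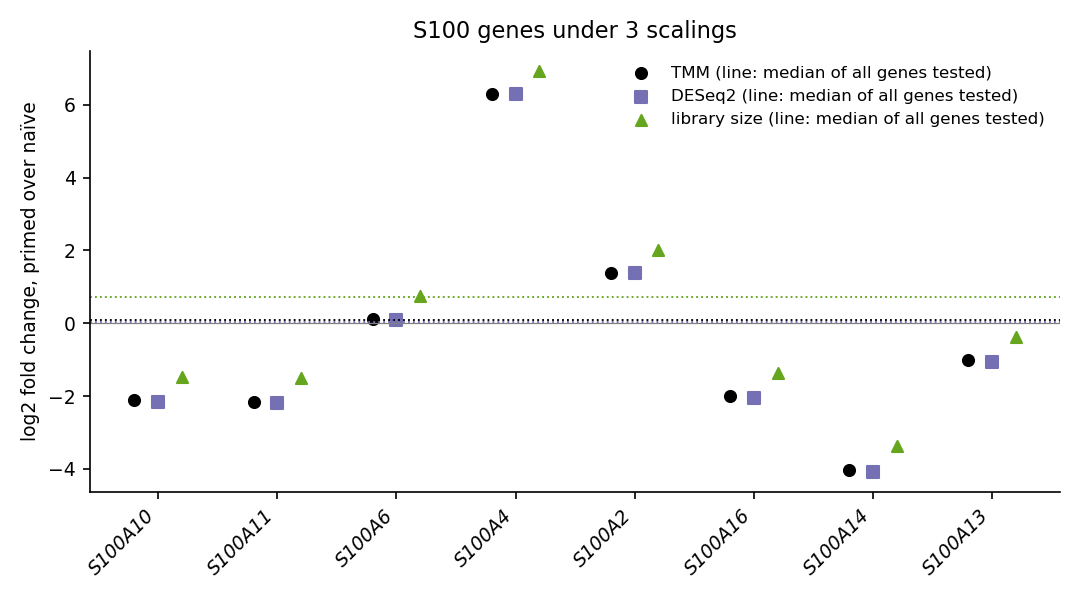
Log2 fold change (y axis, primed over naïve) of 8 S100 members under TMM (black circles), DESeq2 size factors (purple squares) and library size (green triangles), with the median of all tested genes under each scaling as a dotted line. *S100P*, which has no primed count, and *S100B*, which was not tested, are left out. Library size lifts every member, *S100A13* from -1.02 to -0.38 and *S100A6* from 0.13 to 0.76, and the other members keep their side of 0.

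The other S100 genes of the annotation had few counts. Only 3 of 11 reached the count minimum for edgeR's quasi-likelihood test, where 70.0% of all 27633 tested genes were called, 32.6% higher in naïve and 37.4% higher in primed cells. Under library size 72.5% were called (16.3% naïve, 56.2% primed) and by DESeq2 58.7% (29.6% naïve, 29.1% primed). *S100A9*, a calprotectin subunit of myeloid and stressed epithelial cells, was higher in naïve libraries at 11 and 11 against 0 and 1 counts (edgeR adjusted p = 1.36e-05). *S100A1* (22, 41, 41 and 39 counts, log2 fold change 0.05, edgeR adjusted p = 0.906) and *S100Z* (16, 16, 24 and 27 counts, log2 fold change 0.36, edgeR adjusted p = 0.404) did not pass, and under library size 1 of the 3 was higher in naïve and 1 in primed cells. *S100A9* reached the count minimum through the naïve libraries alone, the state in which it is high. With either naïve library left out it was no longer tested and the count was 0. Among the 8 untested genes, *S100A7* had 4 and 6 naïve counts and no primed count.

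The partners of the S100 proteins were examined as lists, which were drawn up with earlier results of these data known. Of 13 annexins, membrane-binding proteins held by *S100A10* and *S100A11* among others, 11 were tested and 10 were higher in naïve cells. Of all tested genes, 32.6% were higher in naïve cells and 70.0% were called in either direction. *ANXA8* and *ANXA8L1* are 2 of the 10, reached the count minimum through the naïve libraries alone and had nearly the same counts. Since multi-mapping was allowed, they may share alignments. The median log2 fold change of the annexins was -1.47, where that of all tested genes was 0.08. Under library size it was -0.84, where that of all genes was 0.72, and 9 annexins were higher in naïve and 1 in primed cells. *ANXA2*, the partner of *S100A10*, had 23580 and 21272 naïve and 3193 and 3057 primed counts, 8.92-fold higher in naïve cells (log2 fold change -3.16, edgeR adjusted p = 4.71e-22). *ANXA1*, a partner of *S100A11*, had 1145 and 1393 against 31 and 22 counts, 58.9-fold higher in naïve cells (edgeR adjusted p = 9.05e-27). *ANXA11*, a partner of *S100A6*, had 524 and 603 against 297 and 260 counts, a 2.50-fold difference (edgeR adjusted p = 1.69e-09). *ANXA9* was at a log2 fold change of 0.49 and did not pass (edgeR adjusted p = 0.18).

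Among 37 other binding partners of S100 proteins, 31 were tested. Of these, 20 were higher in naïve and 8 in primed cells, against 32.6% and 37.4% of all tested genes, and 3 did not pass. *TRPV6*, 1 of the 20, reached the count minimum through the naïve libraries alone, and *IL1A*, 1 of the 8, through the primed libraries alone. Nothing is read from their direction. The median log2 fold change of the 31 was -0.60 under TMM and 0.03 under library size, which turned the split to 11 higher in naïve and 12 in primed cells. *AHNAK*, a giant scaffold bound by the *S100A10* and annexin A2 complex, had 1033 and 1257 naïve and 90 and 147 primed counts, lower in primed cells (log2 fold change -3.58, edgeR adjusted p = 3.06e-21). *EZR*, the membrane linker ezrin bound by S100P, had 6575 and 6821 against 1956 and 1646 counts, 4.60-fold higher in naïve cells (edgeR adjusted p = 4.90e-17). *CTSB*, the protease cathepsin B that is recruited to the cell surface through S100A10, was 12.6-fold higher in naïve cells (edgeR adjusted p = 9.45e-24).

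Partners of the other members differed in both directions. *MYH9*, the myosin heavy chain bound by S100A4, was higher in naïve cells by 0.84 log2 units (edgeR adjusted p = 3.22e-06), and *CACYBP*, the partner of S100A6, by 0.94 (edgeR adjusted p = 2.35e-07), and under library size these differences shrank to 0.20 and 0.30. *SYT1*, the synaptic calcium sensor of the complex that exports FGF1 with *S100A13*, had 25 and 38 naïve and 1155 and 1533 primed counts (log2 fold change 5.10, edgeR adjusted p = 1.40e-24), and *TPM2*, a tropomyosin, was 2.13-fold higher in primed cells (edgeR adjusted p = 5.94e-08).

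Of 7 receptors named for secreted S100 proteins, 6 were tested and 2 passed, where 70.0% of all tested genes did. *ALCAM*, a cell adhesion receptor, had 5 and 9 naïve and 341 and 391 primed counts (log2 fold change 5.38, edgeR adjusted p = 2.36e-20). It reached the count minimum through the primed libraries alone, the state in which it is high. *BSG* (basigin) had 5991 and 5494 against 5363 and 5257 counts and was higher in naïve cells under TMM (log2 fold change -0.43, edgeR adjusted p = 7.55e-03), but its direction flipped under library size, at 0.22. *AGER*, the receptor of *S100P* and *S100B*, was at 15 and 14 against 8 and 17 counts and did not pass (edgeR adjusted p = 0.303). *MCAM* with -0.39 (edgeR adjusted p = 0.104), *CD36* with 0.51 (adjusted p = 0.128) and *NPTN* with 0.07 (adjusted p = 0.702) did not pass either. Under library size none was higher in naïve and 3 were higher in primed cells. With 1 primed library left out *ALCAM* no longer reached the count minimum and *BSG* did not pass (edgeR adjusted p = 0.159 without primed replicate 1 and 0.315 without primed replicate 2), so that 0 were called without primed replicate 2, and the 1 called without primed replicate 1 was *CD36* (edgeR adjusted p = 0.0351). Without naïve replicate 1 *BSG* did not pass either (edgeR adjusted p = 0.0710) and *MCAM* did (edgeR adjusted p = 8.49e-03). *TLR4* was not tested.

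EF-hand calcium sensors outside the family were set beside the members. Of 28, 21 were tested, with a median log2 fold change of -0.31 under TMM. Of the 21, 10 were higher in naïve and 5 in primed cells. The share called was close to the 70.0% of all tested genes, 32.6% higher in naïve and 37.4% higher in primed cells. Among the 5, *PVALB* and *CABP1* reached the count minimum through the primed libraries alone, the state in which they are high, so nothing is read from their direction. Library size gave a median of 0.32 with 7 higher in naïve and 9 in primed cells, and DESeq2 gave 10 and 3. *EFHD1*, a mitochondrial sensor, fell in primed cells by 2.53 log2 units (edgeR adjusted p = 6.49e-16) and the neuronal sensor *HPCA* fell by 2.07 (edgeR adjusted p = 4.89e-14). *VSNL1*, another neuronal sensor, had 10 and 8 naïve against 689 and 615 primed counts (log2 fold change 5.86, edgeR adjusted p = 1.70e-23). *PVALB* (parvalbumin), singled out after its values were seen, had no naïve count and 76 and 100 primed counts. *NCS1*, a neuronal calcium sensor as well, was 1.57-fold higher in primed cells (edgeR adjusted p = 0.0254).

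**Figure D4:**
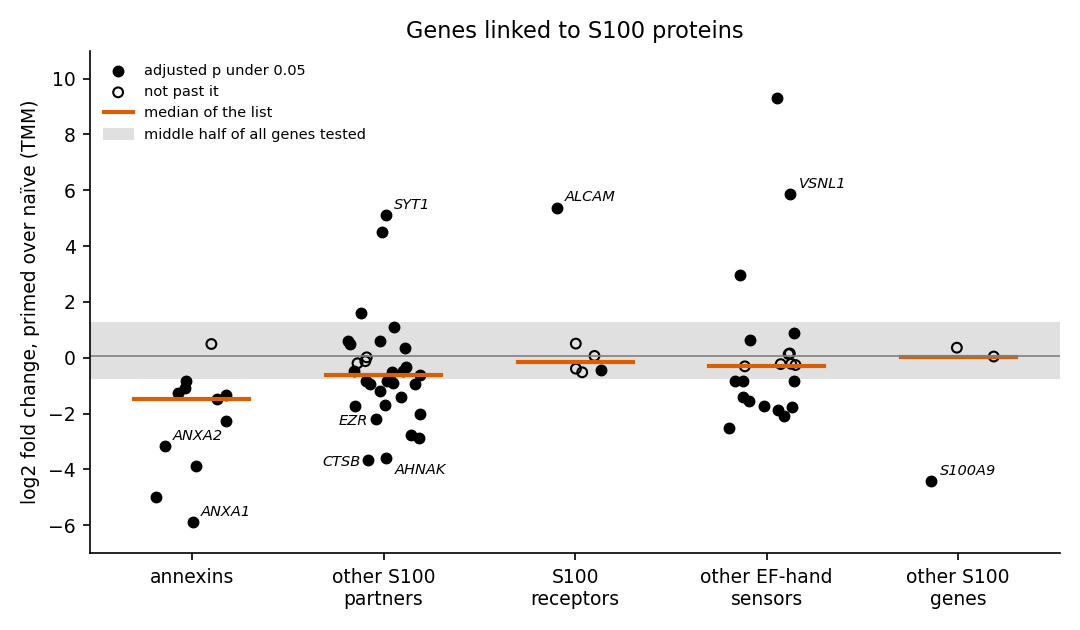
Log2 fold change under TMM (y axis, primed over naïve) of the tested genes in 5 lists linked to S100 proteins, with filled points past an edgeR adjusted p of 0.05, open points not past it and orange lines at the median of each list. The grey band runs from the lower to the upper quartile of all tested genes, -0.74 to 1.23. Annexins lie lowest with a median of -1.47, and *ANXA1* is at -5.88, while *SYT1*, *ALCAM* and *VSNL1* lie above 5. The highest point is *PVALB*, whose height depends on the fit because it has no naïve count.

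The 8 members of chromosome 1 span a stretch in which most genes had no count. Between the start of *S100A10* at 151982915 and that of *S100A13* at 153618787, the annotation holds 82 further genes, of which 51 had no count in any library and 8 were tested. Of these 8, 4 were higher in naïve cells by edgeR's quasi-likelihood test and none in primed cells, and 3 against 1 under library size. Over all tested genes, 32.6% were higher in naïve and 37.4% in primed cells under TMM. The count was 1 without naïve replicate 1 and 2 without naïve replicate 2, with 5 genes tested in each case. The antisense lncRNAs over *S100A11* and *S100A6* are 2 of the 8 and share alignments with these members, so the call of the former repeats the counts of *S100A11*. Of the remaining 6, 3 were called, namely *S100A9*, *PRR9*, another gene of the epidermal differentiation complex (53 and 80 naïve, 2 and 0 primed counts, edgeR adjusted p = 3.66e-13), and the pseudogene *SPTLC1P4* (17 and 16 against 5 and 8 counts, edgeR adjusted p = 2.84e-03). All 3 reached the count minimum through the naïve libraries alone, so nothing is read from their shared direction. *PRR9* and *SPTLC1P4* were named after their values were seen. In map order *S100A6*, *S100A4* and *S100A2* follow one another among the members, with *S100A5* and *S100A3* between them, and these are the chromosome 1 members that were not higher in naïve cells, with *S100A10* and *S100A11* on one side of them and *S100A16*, *S100A14* and *S100A13* on the other.

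The counts of different transcripts of 1 member were mostly the same alignments. Over the 45 member transcripts, *S100P*, *S100A2* and *S100B* each had a single count profile for all their transcripts, *S100A4* had 2 for 6, *S100A14* 3 for 6, *S100A13* 3 for 6 and *S100A6* 3 for 5. *S100A10*, *S100A11* and *S100A16* had a profile for each transcript, but those of *S100A16* lay within 593 to 622 counts in naïve replicate 1. The stretch of *S100A16* upstream of S100A16-202 held 3, 2, 1 and 2 counts. With the shortest transcript of each member in place of the one with the largest count, 9 members did not overlap in place of 8, the added one being *S100A6* through S100A6-204.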

How the data were processed

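Total RNA of H1 hESCs (2 naïve and 2 primed libraries) was taken through the Nanopore Ligation Sequencing Kit 1D and sequenced on a PromethION. The authors aligned the cDNA reads to GRCh38 with minimap2 in spliced mode and deposited raw counts per transcript from featureCounts 2.0.0, with no normalization. Per the file headers, the annotation was Ensembl release 105, whole transcript spans with introns were counted, strand was ignored, and long-read mode, overlaps (-O) and multi-mapping (-M) were allowed, so 1 alignment can add to several spans and 1 read to several places. Counts are of alignments, not of molecules.

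Of 244825 transcripts, 242542 were matched by identifier to GENCODE 44 for symbols, exons and coordinates, and 97.9% of these had the same position. The 2283 unmatched transcripts held 1.0% of counts and were left out. The gene value was the count of the transcript with the largest mean count. Genes that reached 10 counts in 2 or more libraries entered edgeR 4.0.16 (R 4.3.3, TMM, quasi-likelihood test with state as the term, two-sided), with Benjamini-Hochberg adjustment over all 27633 genes, called at an adjusted p under 0.05. The study gives no gene-level test for these counts. Python 3.11.15, pandas 2.3.3, numpy 2.4.6, scipy 1.17.1 and matplotlib 3.10.9 were used. Shares carry 95% Wilson intervals, and the interval of a ratio of summed counts is an exact binomial one.

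The members and all gene lists were chosen with earlier results of these data known. Named were the 10 members, genes overlapping them and, from each list, every gene if 6 or fewer were tested, otherwise, for each direction, the 2 of largest log2 fold change that were called, did not overlap and had a mean count of 50 or more, plus some of the best known partners (*ANXA1*, *ANXA2*, *ANXA11*, *AHNAK*, *CACYBP*, *EZR*, *MYH9* and *AGER*, with 1 more not reported here), and the 5 genes most like *S100P* and *S100A4*, the members with the widest gap in each direction at that count. *KLF17*, *KRT7*, *ENPEP* and other genes named without full values were singled out after their values were seen. Replicates of a state differed beyond counting noise (chi-square per degree of freedom 15.2 naïve, 8.89 primed). Same-numbered libraries did not deviate together (r = 0.0318 over 27633 genes), so numbers were not taken as pairs. Alternatives were library size, DESeq2 1.42.0, other count minimums, summed transcripts, a replicate block, a log2 fold change beyond 1, leaving out each library and, chosen after seeing the data, the coding transcript with the largest mean count. Protein sequences were not analysed here.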

Additional observations from a re-analysis of the deposited data

How the results depend on the processing

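With library size in place of TMM, 2 of 3 other S100 genes were called in place of 1, and the whole table split into 4511 genes higher in naïve and 15525 higher in primed cells against 9009 and 10327 under TMM and 8177 and 8034 with DESeq2. With no count minimum, 3 other S100 genes and 7 genes between the chromosome 1 members were called. With at least 50 counts in 2 libraries these were 0, since none of the other S100 genes was tested, and 2, and 2 fibroblast markers were called, as with DESeq2. Asking for a log2 fold change beyond 1 left 14 binding partners and 1 receptor, by construction.

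Leaving out 1 library at a time gave 13608 to 16838 genes over the whole table (19336 in all 4 libraries), 0 to 1 other S100 genes, 8 to 10 annexins, 22 to 25 binding partners, 0 to 2 receptors, 12 to 15 EF-hand genes, 1 to 4 genes between the chromosome 1 members, 4 to 8 primed, 11 to 19 trophoblast, 4 to 6 amnion and 2 to 4 fibroblast markers. Genes seen in 1 state alone then no longer reach 10 counts in 2 libraries, and the lone library is assumed to vary like the other state. The log2 fold change of *S100A6* was reversed without naïve replicate 1, at -0.076, and ran up to 0.38. *S100A4* ran from 5.61 to 7.58 and *S100A2* from 0.89 to 2.03. The number of members higher in naïve cells stayed at 6 under every scaling and with summed or coding transcripts, and was 6 to 7 with a library left out.

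The replicate number as a replicate block gave 19690 calls over the whole table in place of 19336 and the same count for each list, 28 for the binding partners. Numbers are only shared labels here, since deviations of same-numbered libraries correlated at 0.0318. Depth limits *S100B* and *S100A2*, whose counts are too few to give a level, and the naïve side of *S100A4*.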
